A study of Mus musculus with 10 samples.

Results

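The transcripts described here are those of the DNA replication machinery and of the activating E2F factors, a list of 43 genes chosen by name for their roles, with earlier results of these data known. All 43 were found among the 22878 gene symbols of the series, and for each of them the listed transcript with the highest mean read count over all libraries was kept. RNA-Seq of polyA RNA was made from R1 mouse embryonic stem (ES) cells and from embryoid bodies (EBs), floating aggregates in which ES cells differentiate once the cytokine LIF is left out. The groups were shSmyd5 cells, which carry a lentiviral shRNA against the histone methyltransferase gene Smyd5, and shLuc cells, which carry an shRNA against luciferase, each as ES cells and as EBs of 24 h, day 6, day 10 and day 14, with 1 library per condition and 10 in all. All were puromycin-selected R1 cells, and the ES cells for RNA-Seq had been passed on gelatin with the GSK3 inhibitor CHIR to remove feeder cells. The study made 3 shRNAs against Smyd5, and the labels do not say which of them these libraries carry. Smyd5 itself was lower in the shSmyd5 library of every stage, by a log2 fold between -4.71 at day 6 and -0.92 at day 14. Reads in genes ranged between 3895537 in shLuc ES cells and 43377815 in shLuc EBs of day 6.

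Replication begins when the origin recognition complex, with Cdc6 and Cdt1, loads a double ring of the MCM2-7 helicase on DNA in G1. In S phase the kinase Cdc7 with its subunit Dbf4, and the loading of Cdc45 and the GINS complex, turn this ring into a moving helicase, behind which the polymerases, the sliding clamp PCNA and the single-strand binding protein RPA work. Many of these genes are switched on by E2F factors once cyclin-dependent kinases release them from the retinoblastoma protein, and mouse ES cells, whose G1 phase is short, are known for high levels of them. In bulk libraries such as these, fewer cells in S phase and less RNA per cell cannot be told apart.

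Levels are given as RPKM, reads divided by the length of the transcript and by the total of the library, so that genes can be compared with each other. Over the 43 genes the median level was 44.0, 37.4, 14.2, 26.3 and 19.1 RPKM in shSmyd5 cells in the order ES, 24 h, day 6, day 10, day 14, against 47.5, 37.7, 28.7, 28.4 and 19.6 RPKM in shLuc cells. The medians of both lines were thus highest in ES cells, and the shSmyd5 line had its lowest at day 6 while the shLuc line had its lowest at day 14. Pcna was the highest of the 43 in each of the 10 libraries, at 80.0 to 467 RPKM. E2f2 was the lowest in 8 of the 10, the exceptions being shLuc ES cells (Gins3) and shLuc EBs of 24 h (Pold1). Wherever 5 values of a line are given below, they run in the order ES cells, 24 h, day 6, day 10 and day 14.

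In shSmyd5 cells 25 of the 43 genes were at their highest in ES cells and 16 at 24 h, and in shLuc cells 25 and 14 were. Of all 12277 genes with a mean of at least 1 RPKM, 25.6% were highest in ES cells and 15.5% at 24 h in shSmyd5 cells, and 29.97% and 12.9% in shLuc cells. The lines differed in where the genes were lowest. In shSmyd5 cells 25 genes had their lowest level at day 6 and 12 at day 14, against 4 at day 6 and 22 at day 14 in shLuc cells. Of all those genes, 29.8% were lowest at day 6 and 12.3% at day 14 in shSmyd5 cells, against 7.35% and 12.2% in shLuc cells. From day 6 to day 10, 20 of the 43 genes were at least 1.5-fold higher at day 10 in shSmyd5 cells, and 9 in shLuc cells, while 51.0% and 40.0% of all genes were. These counts describe single libraries and have no replicate check. RPKM is not adjusted for GC content, and the part of GC content in the order of stages was not tested.

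**Figure D1:**
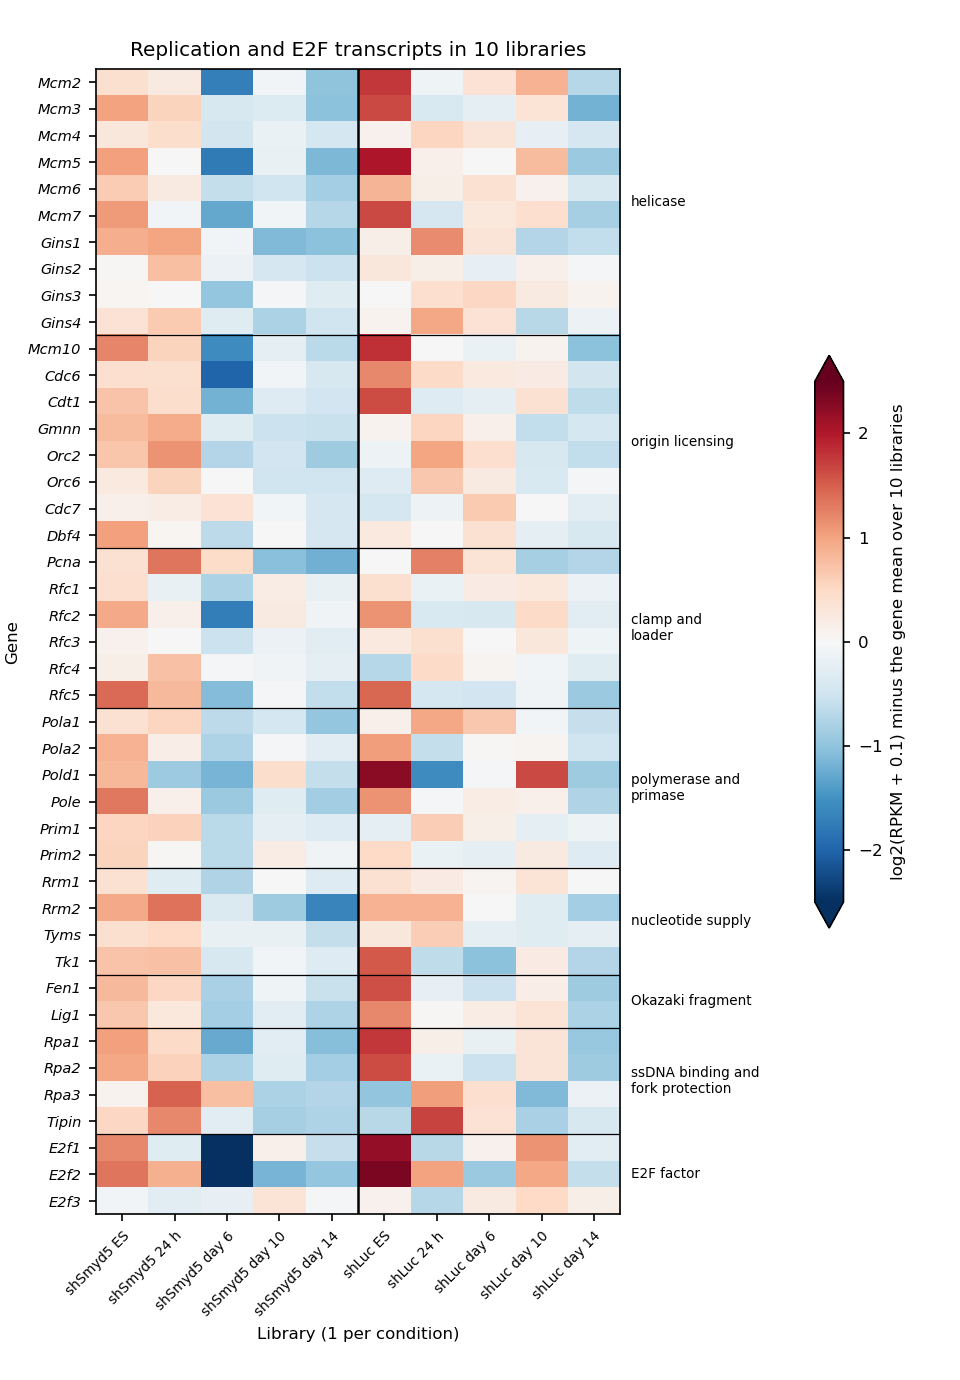
Level of the 43 genes (rows, grouped by role) in the 10 libraries (columns, shSmyd5 left and shLuc right), as log2 of RPKM plus 0.1 less the mean of the gene over the 10 libraries; values beyond 2.5 on either side have the end colour. The column of shSmyd5 day 6 holds the lowest value of its line for 25 of the 43 genes.

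The change over differentiation could be tested, since day 10 and day 14 (4 libraries, called late) and ES cells and 24 h (4 libraries, called early) each hold both lines. EdgeR, run as a quasi-likelihood test with stage and shRNA as terms and with p-values adjusted over all genes by Benjamini-Hochberg, called 36 of the 43 genes lower and 0 higher in late libraries at an adjusted p of 0.05. The same test called 25.8% of all 12277 genes lower and 30.1% higher. The 4 late values lay below all 4 early values for 11 of the 43 genes (Mcm4, Mcm6, Gins1, Gins4, Cdc6, Gmnn, Orc2, Pcna, Pola1, Rrm2 and Tyms) and above them for 0, while 10.6% of all genes had all late values below the early ones. The median log2 fold of the 43 genes, late minus early, was -1.25, and that of all genes 0.060. The call held in all of 23 alternatives of the same contrast, leaving out each stage and library among them, for 20 of the 36 genes. E2f2 passed in the 22 of them that tested it, and the call was lost in 1 or more for the other 15, Cdc6, Dbf4, Gins2, Mcm2, Mcm7, Orc6, Pola2, Prim1, Prim2, Rfc2, Rfc3, Rfc4, Rpa3, Tipin and Tk1. Of these, Prim2 lost it in 14 of the 23, Rfc3 in 12, Rfc2 and Rfc4 in 10 each, and the rest in 6 or fewer. Within the lines, the late mean was below the early mean for 42 of 43 genes in shSmyd5 cells and 41 of 43 in shLuc cells, as it was for 41.1% and 40.9% of all genes. Both day 10 and day 14 lay below both ES cells and 24 h for 36 genes in shSmyd5 cells and for 14 in shLuc cells, and for 25.9% and 13.4% of all genes. The shLuc 24 h library was the lowest of its line for 5 of the 43 genes and for 43.2% of all genes. The stages are not replicates of one condition, and with 1 library in each the p-values measure the spread left after the terms for stage and shRNA. The split over all genes depended on the processing. In the main test it was 3172 lower and 3700 higher. With an offset for GC content and transcript length, which could be had for 11695 genes, the split was 5044 lower and 2740 higher. The offset also scaled each library anew, to the mean of the genes fitted, and the median of all genes was -0.38 with it. With limma on log2 RPKM, which is also another test and unit, the split was 2058 lower and 4935 higher. With the offset and with limma the 43 genes counted 43 and 25 lower and 0 higher.

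**Figure D2:**
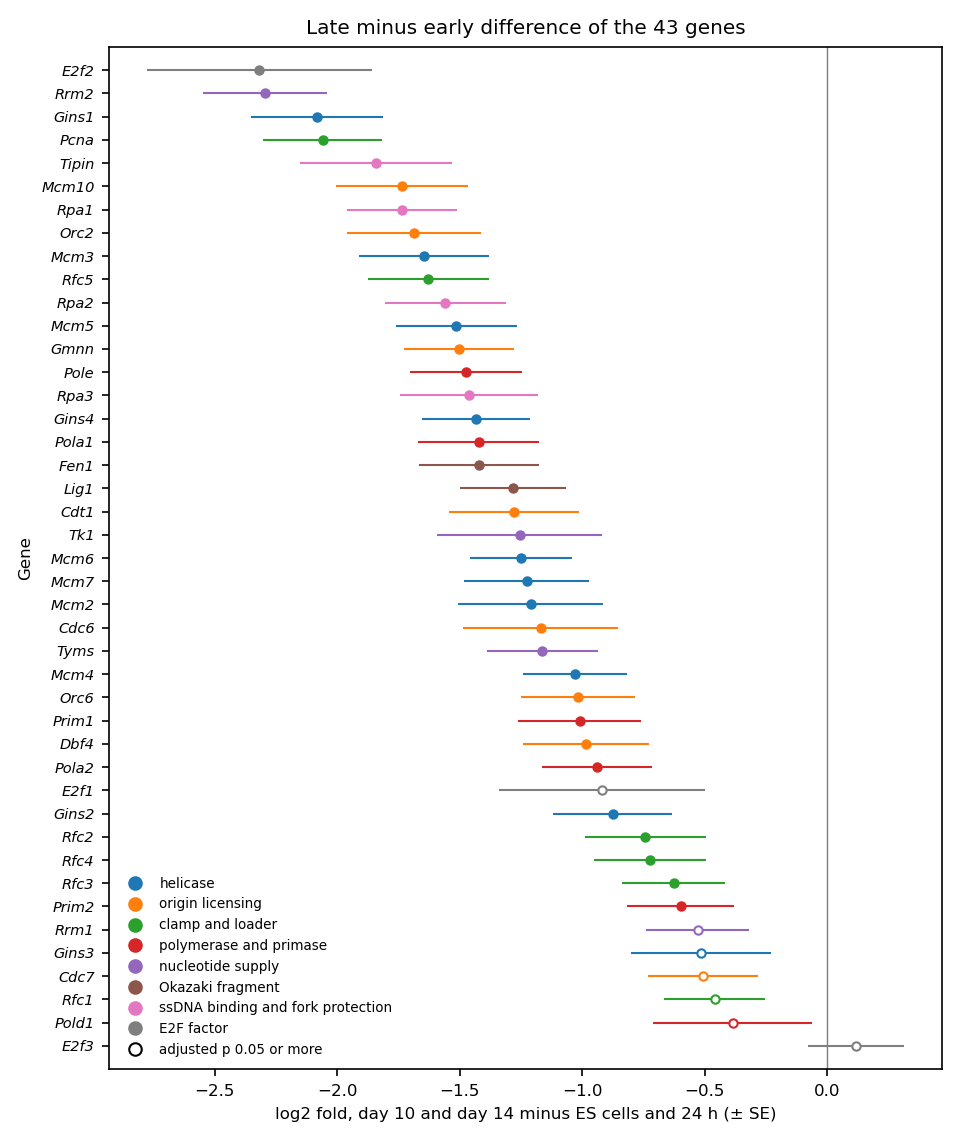
Log2 fold of each of the 43 genes, day 10 and day 14 minus ES cells and 24 h (x axis, with its standard error as a bar), coloured by role; open circles did not pass an adjusted p of 0.05. The points run between -2.32 for E2f2 and 0.12 for E2f3, and 36 are filled.

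E2F factors are known to bind a short motif, and the promoters of the genes were searched for 4 spellings of it, TTTCCCGC, TTTCGCGC, TTTGCCGC and TTTGGCGC, on both strands. RefSeq promoters of 300 bases, 250 before and 50 after the start site, on GRCm38.p6, were had for 34 of the 43 genes. A match was present for 13 of the 34, which is 38.2%, namely Mcm3, Mcm5, Mcm6, Mcm7, Gins3, Cdc6, Cdt1, Rfc3, Pola1, Pold1, Lig1, E2f2 and E2f3. Of all 27025 genes with such a promoter, 704 had one, or 2.6%. At least 2 matches were found for 5 of the 34 and for 29 of all genes. Matches on the 2 strands can overlap, as in TTTCGCGCCAAA of the Mcm5 promoter. The windows below are shown because they belong to genes whose levels are compared here, 3 of the MCM ring, the loader Cdc6, the clamp loader subunit Rfc3 and the factor E2f3 itself; each is read 5′ to 3′ on the strand of its gene, on GRCm38.p6, with the matches in capitals.
Mcm5 (chr8:75109340-75109387, plus strand): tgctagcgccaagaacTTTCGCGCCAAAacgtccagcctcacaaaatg
Mcm6 (chr1:128359725-128359772, minus strand): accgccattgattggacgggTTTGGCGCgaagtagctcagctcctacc
Mcm7 (chr5:138172021-138172068, minus strand): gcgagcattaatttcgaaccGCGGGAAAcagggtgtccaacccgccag
Cdc6 (chr11:98907993-98908040, plus strand): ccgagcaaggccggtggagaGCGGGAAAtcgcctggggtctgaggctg
Rfc3 (chr5:151651181-151651228, minus strand): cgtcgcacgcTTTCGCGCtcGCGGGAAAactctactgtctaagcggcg
E2f3 (chr13:29986047-29986094, minus strand): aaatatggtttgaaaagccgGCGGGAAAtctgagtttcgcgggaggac
The match at the middle of each window lay at -149 for Mcm5, -47 for Mcm6, -165 for Mcm7, -138 for Cdc6, 0 for Rfc3 and -11 for E2f3, counted in bases from the start site to the first base of the match. The genes with a match included E2f3, Pold1 and Gins3, which were not called between late and early libraries. Those without one in these windows included Mcm2, Pcna, Rrm2 and E2f1. A match is a run of letters and not a measured binding site.

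Of the 10 helicase genes, 9 fell. Mcm2 to Mcm7 encode the ring of the replicative helicase, and their genes lie apart, in mm9 at chr6:88833469-88848774, chr1:20793055-20810359, chr16:15623990-15637493, chr8:77633427-77652338, chr1:130228168-130256233 and chr5:138605811-138613650 in that order. Mcm2 had 40.2, 35.6, 9.34, 29.2 and 15.1 RPKM in shSmyd5 cells, against 105, 28.5, 39.3, 55.8 and 18.5 RPKM in shLuc cells. Mcm3 had 107, 78.5, 40.6, 42.3 and 26.2 RPKM in shSmyd5 cells, against 169, 41.2, 45.3, 67.9 and 23.5 RPKM in shLuc cells. Mcm5 had 86.7, 42.7, 12.5, 37.6 and 19.6 RPKM in shSmyd5 cells, against 174, 46.6, 42.9, 73.9 and 22.4 RPKM in shLuc cells. In shLuc cells these genes were highest in ES cells and had a further high at day 10, and in shSmyd5 cells Mcm2 and Mcm5 had their lowest value at day 6. Mcm7 had 121, 54.9, 23.8, 54.8 and 35.0 RPKM in shSmyd5 cells, against 182, 42.9, 69.7, 77.5 and 32.3 RPKM in shLuc cells, with the same low at day 6 in shSmyd5 cells. Mcm4 had 85.2, 95.1, 51.0, 62.1 and 51.2 RPKM in shSmyd5 cells, against 75.2, 101, 86.9, 60.2 and 51.8 RPKM in shLuc cells. Mcm6 had 114, 86.0, 48.4, 51.7 and 40.8 RPKM in shSmyd5 cells, against 132, 81.9, 96.0, 79.2 and 55.4 RPKM in shLuc cells. The late values of Mcm4 and Mcm6 lay below every early value, while those of Mcm2, Mcm3, Mcm5 and Mcm7 overlapped the low 24 h values. Mcm2 in shLuc EBs of day 10, at 55.8 RPKM, also lay above the 40.2 RPKM of shSmyd5 ES cells. Mcm2 was the lowest of the 6 in 9 of the 10 libraries, the exception being shLuc ES cells (Mcm4). The highest of the 6 exceeded the lowest by 5.46 times in shSmyd5 EBs of day 6, where the ratio was largest, and by 1.42 times in shLuc EBs of day 10, where it was smallest. In the test of late against early, the log2 folds of the 6 were -1.21 ± 0.30 (SE) for Mcm2, -1.64 ± 0.26 for Mcm3, -1.03 ± 0.21 for Mcm4, -1.51 ± 0.25 for Mcm5, -1.25 ± 0.21 for Mcm6 and -1.23 ± 0.25 for Mcm7, all called. Their edgeR adjusted p-values ran between 0.000425 for Mcm3 and 0.00525 for Mcm2. Mcm7 shares up to 247 exonic bases with Ap4m1 on the other strand, and with reads of unknown strand these cannot be told apart. The same limit holds for Rfc5, which shares up to 499 bases with Wsb2, and for Orc2, which shares up to 464 with Nif3l1.

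The GINS complex, made of the products of Gins1 to Gins4, joins the MCM ring to form the active helicase. Gins1 had 48.0, 50.7, 24.1, 11.8 and 12.5 RPKM in shSmyd5 cells, against 28.2, 57.4, 31.6, 15.2 and 16.6 RPKM in shLuc cells. Gins2, which shares exonic sequence with Gse1 on the other strand, had 39.5, 65.1, 35.2, 29.0 and 26.9 RPKM in shSmyd5 cells, against 47.5, 42.9, 33.7, 42.4 and 37.7 RPKM in shLuc cells. Gins1 was at its highest at 24 h in both lines, and its late values, 11.8 to 16.6 RPKM, did not reach the early ones, 28.2 to 57.4 RPKM. Gins3 had 6.17, 6.01, 3.01, 5.86 and 4.81 RPKM in shSmyd5 cells, against 6.02, 8.05, 8.6, 7.0 and 6.32 RPKM in shLuc cells, low in every library. Gins1 fell by 2.08 on the log2 scale (SE 0.27, edgeR adjusted p = 0.000102), Gins2 and Gins4 also passed, and Gins3 did not, at -0.52 ± 0.29 (edgeR adjusted p = 0.147).

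Of the 8 genes of origin licensing and firing, 7 fell. Cdc6, a loader of the MCM ring, had 8.96, 8.88, 1.59, 6.38 and 5.04 RPKM in shSmyd5 cells, against 15.6, 9.43, 7.91, 7.71 and 4.84 RPKM in shLuc cells. Cdt1, its partner in loading, had 78.1, 64.5, 20.9, 37.7 and 34.0 RPKM in shSmyd5 cells, against 146, 37.7, 40.6, 61.2 and 30.3 RPKM in shLuc cells. Gmnn encodes geminin, which binds and blocks Cdt1, and had 102, 113, 48.4, 41.0 and 40.4 RPKM in shSmyd5 cells, against 63.1, 86.2, 64.9, 38.7 and 43.6 RPKM in shLuc cells. Cdt1 was highest in shLuc ES cells and Gmnn in the 24 h libraries, so the inhibitor and its target had different orders of stages. Their transcripts also differ in GC content, 58.8% for Cdt1 and 45.9% for Gmnn, whose part in this was not tested. Mcm10, a helicase activator, had 35.1, 22.1, 4.99, 12.8 and 9.39 RPKM in shSmyd5 cells, against 53.6, 14.9, 13.3, 15.9 and 7.36 RPKM in shLuc cells. Orc2, a subunit of the origin recognition complex, had 33.6, 45.4, 12.4, 14.8 and 11.1 RPKM in shSmyd5 cells, against 19.1, 41.3, 27.8, 15.6 and 13.5 RPKM in shLuc cells. Orc6, another subunit, had 68.1, 85.1, 58.3, 40.6 and 41.0 RPKM in shSmyd5 cells, against 46.2, 91.3, 66.8, 44.5 and 56.6 RPKM in shLuc cells. Mcm10 was highest in ES cells and both Orc genes at 24 h, in either line. Dbf4, the activating subunit of the Cdc7 kinase, had 83.2, 42.6, 26.1, 40.9 and 30.7 RPKM in shSmyd5 cells, against 49.0, 40.6, 53.6, 35.1 and 31.1 RPKM in shLuc cells. Cdc7 had 12.02, 12.6, 14.2, 10.5 and 8.18 RPKM in shSmyd5 cells, against 8.11, 10.1, 17.6, 11.1 and 9.14 RPKM in shLuc cells. Cdc7 was the member of this group at its highest at day 6, in both lines. Late against early, Mcm10 had a log2 fold of -1.74 ± 0.27, Orc2 of -1.69 ± 0.27, Gmnn of -1.50 ± 0.22, Cdt1 of -1.28 ± 0.27, Cdc6 of -1.17 ± 0.32, Orc6 of -1.02 ± 0.23 and Dbf4 of -0.98 ± 0.26, with edgeR adjusted p-values between 0.00026 and 0.00898. Cdc7 at -0.51 ± 0.22 did not pass (edgeR adjusted p = 0.0769).

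PCNA is the ring that holds polymerases on DNA, and RFC, made of the products of Rfc1 to Rfc5, opens and loads it. Pcna had 240.3, 467, 251, 89.4 and 80.0 RPKM in shSmyd5 cells, against 186, 439, 232, 104 and 111 RPKM in shLuc cells. Its late values, 80.0 to 111 RPKM, lay below its early ones, 186 to 467 RPKM, and the 24 h libraries stood highest. Rfc1 had 29.2, 19.2, 12.6, 24.7 and 19.1 RPKM in shSmyd5 cells, against 28.6, 19.3, 24.9, 26.2 and 19.6 RPKM in shLuc cells. Rfc3 had 31.3, 29.3, 20.1, 26.3 and 24.0 RPKM in shSmyd5 cells, against 34.5, 38.6, 28.8, 35.4 and 27.0 RPKM in shLuc cells. Rfc4 had 39.3, 59.5, 34.9, 33.4 and 30.6 RPKM in shSmyd5 cells, against 21.5, 49.8, 37.2, 33.9 and 28.6 RPKM in shLuc cells. Rfc1 and Rfc3 varied less over the stages than Pcna did, and Rfc4 was lowest in shLuc ES cells. Rfc5 had 76.2, 50.1, 13.3, 27.6 and 18.4 RPKM in shSmyd5 cells, against 77.2, 21.0, 20.3, 26.6 and 15.0 RPKM in shLuc cells, with the ES cells of both lines above the later libraries. Pcna fell by 2.06 on the log2 scale (SE 0.24, edgeR adjusted p = 5.28e-05). Rfc5, Rfc2, Rfc3 and Rfc4 passed with log2 folds of -1.63, -0.74, -0.63 and -0.72, and Rfc1 at -0.46 ± 0.21 did not (edgeR adjusted p = 0.0806).

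Of the 6 polymerase and primase genes, 5 fell. Pola1, the catalytic subunit of polymerase alpha, had 12.6, 13.9, 6.08, 7.07 and 4.83 RPKM in shSmyd5 cells, against 10.4, 18.8, 15.4, 9.14 and 6.37 RPKM in shLuc cells. Pola2, its regulatory subunit, had 33.6, 20.6, 10.7, 17.8 and 15.2 RPKM in shSmyd5 cells, against 38.3, 12.2, 18.9, 19.2 and 13.1 RPKM in shLuc cells. Pold1, the catalytic subunit of polymerase delta, had 12.5, 3.63, 3.04, 9.48 and 4.55 RPKM in shSmyd5 cells, against 33.6, 2.28, 6.68, 22.0 and 3.71 RPKM in shLuc cells. Pold1 was high in the ES cells and day 10 EBs of both lines and low in the 24 h and day 14 libraries, so its late and early values overlapped widely. Its log2 fold was -0.38 ± 0.32 (edgeR adjusted p = 0.333), and with the ES cells left out it was 0.81 (adjusted p = 0.120), in the other direction. Without the 24 h EBs it was -1.56 (adjusted p = 0.00328) and without the day 10 EBs -1.26 (adjusted p = 0.0292), past the threshold by edgeR in both. Pola1 had -1.42 ± 0.25, Pola2 -0.94 ± 0.23, Pole, the catalytic subunit of polymerase epsilon, -1.48 ± 0.23, and the primase genes Prim1 and Prim2 -1.01 ± 0.25 and -0.60 ± 0.22, with edgeR adjusted p-values up to 0.0363.

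Of the 4 genes of deoxynucleotide supply, 3 fell. Rrm2, the small subunit of ribonucleotide reductase that is made in S phase, had 159, 210.4, 64.3, 44.6 and 26.02 RPKM in shSmyd5 cells, against 151, 150.4, 82.8, 67.0 and 45.4 RPKM in shLuc cells. Rrm1, the large subunit, had 58.2, 36.3, 26.5, 45.1 and 36.1 RPKM in shSmyd5 cells, against 58.2, 51.4, 47.3, 56.8 and 45.4 RPKM in shLuc cells. The late values of Rrm2, 26.02 to 67.0 RPKM, lay far below its early ones, 150.4 to 210.4 RPKM, while those of Rrm1 overlapped. Rrm2 fell by 2.29 on the log2 scale (SE 0.25, edgeR adjusted p = 3.67e-05), and Rrm1 at -0.53 ± 0.21 lay just outside the threshold (edgeR adjusted p = 0.0512). Tyms, the thymidylate synthase, whose kept row is a transcript that RefSeq lists as non-coding, had 12.1, 12.9, 7.92, 7.93 and 5.94 RPKM in shSmyd5 cells, against 11.0, 13.9, 7.63, 7.28 and 7.59 RPKM in shLuc cells. Tk1, the thymidine kinase of the salvage pathway, had 23.7, 24.0, 10.9, 13.6 and 11.4 RPKM in shSmyd5 cells, against 41.9, 9.13, 6.93, 16.5 and 8.54 RPKM in shLuc cells. Tyms ran between 5.94 and 13.9 RPKM, and Tk1 differed between the lines most at 24 h, where shSmyd5 EBs were high.

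Both genes of Okazaki fragment processing fell, the flap endonuclease Fen1 by 1.42 on the log2 scale and the DNA ligase Lig1, which fell by 1.28 (edgeR adjusted p = 0.000627 and 0.000562). Fen1, with a long exonic overlap with the gene model Gm10143 on the other strand, had 44.3, 36.2, 14.4, 23.5 and 17.2 RPKM in shSmyd5 cells, against 76.9, 21.9, 17.3, 28.4 and 13.5 RPKM in shLuc cells. All 4 genes of single-strand binding and fork protection fell as well. Rpa3, the smallest subunit of RPA, had 67.5, 175, 106, 36.6 and 38.0 RPKM in shSmyd5 cells, against 31.7, 130.3, 84.6, 29.3 and 56.9 RPKM in shLuc cells. Tipin, a partner of Timeless at the fork, had 129, 209, 74.1, 51.1 and 53.0 RPKM in shSmyd5 cells, against 55.8, 293, 116, 51.2 and 68.5 RPKM in shLuc cells. Rpa3 and Tipin were highest at 24 h in both lines and were far lower in shLuc ES cells than in shLuc EBs of 24 h, whereas Rpa1 and Rpa2, the larger RPA subunits, were highest in ES cells. The transcripts of Rpa3 and Tipin are 40.4% and 40.8% GC, and those of Rpa1 and Rpa2 49.4% and 51.5%. The part of GC content in this was not tested. The log2 folds, late minus early, were -1.73 ± 0.22 for Rpa1, -1.56 ± 0.25 for Rpa2, -1.46 ± 0.28 for Rpa3 and -1.84 ± 0.31 for Tipin, with edgeR adjusted p-values of at most 0.00132.

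Of the 3 activating E2F factors, 1 fell. E2f1 (mm9 chr2:154385143-154395628) had 11.9, 4.12, 0.593, 5.59 and 3.37 RPKM in shSmyd5 cells, against 23.8, 3.13, 5.5, 11.2 and 4.16 RPKM in shLuc cells. E2f2 (chr4:135728309-135751972) had 3.05, 2.21, 0.0655, 0.459 and 0.534 RPKM in shSmyd5 cells, against 6.28, 2.4, 0.552, 2.34 and 0.718 RPKM in shLuc cells. E2f3 (chr13:29998444-30077537) had 10.5, 9.04, 9.57, 14.0 and 10.8 RPKM in shSmyd5 cells, against 11.9, 6.73, 12.9, 15.8 and 12.3 RPKM in shLuc cells. E2f1 and E2f2 were highest in the ES cells of both lines and lowest of all in shSmyd5 EBs of day 6, with 94 reads for E2f1 and 20 for E2f2 there, while E2f3 was highest at day 10 in both lines. E2f2 fell by 2.32 on the log2 scale (SE 0.46, edgeR adjusted p = 0.00154), the lowest fold of the 43. E2f1 at -0.92 ± 0.42 did not pass (edgeR adjusted p = 0.085). Its fold was -0.094 without the ES cells (edgeR adjusted p = 0.899) and -1.78 without the 24 h EBs (edgeR adjusted p = 0.00784), and its adjusted p was under 0.05 in 9 of 26 alternatives, DESeq2 (adjusted p = 0.0466) and the GC and length offset (edgeR adjusted p = 0.0172) among them. Nor did the main test call E2f3 at 0.12 ± 0.20 (edgeR adjusted p = 0.628). With the GC and length offset the fold of E2f3 was -0.69 (edgeR adjusted p = 0.00562), in the other direction. That offset also changed the scaling, and the median of all genes was 0.060 in the main test and -0.38 with it. Of the other 5 genes not called, Rrm1 had an adjusted p under 0.05 in 8 of the 26 alternatives, Cdc7 and Pold1 in 4 each and Gins3 and Rfc1 in 2 each. The 26 take in contrasts of other stages, and a stricter threshold that has the p-values of the main test. Among those under 0.05 was day 14 minus ES cells for E2f1 and Pold1, and day 10 and day 14 minus day 6 for Cdc7.

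**Figure D3:**
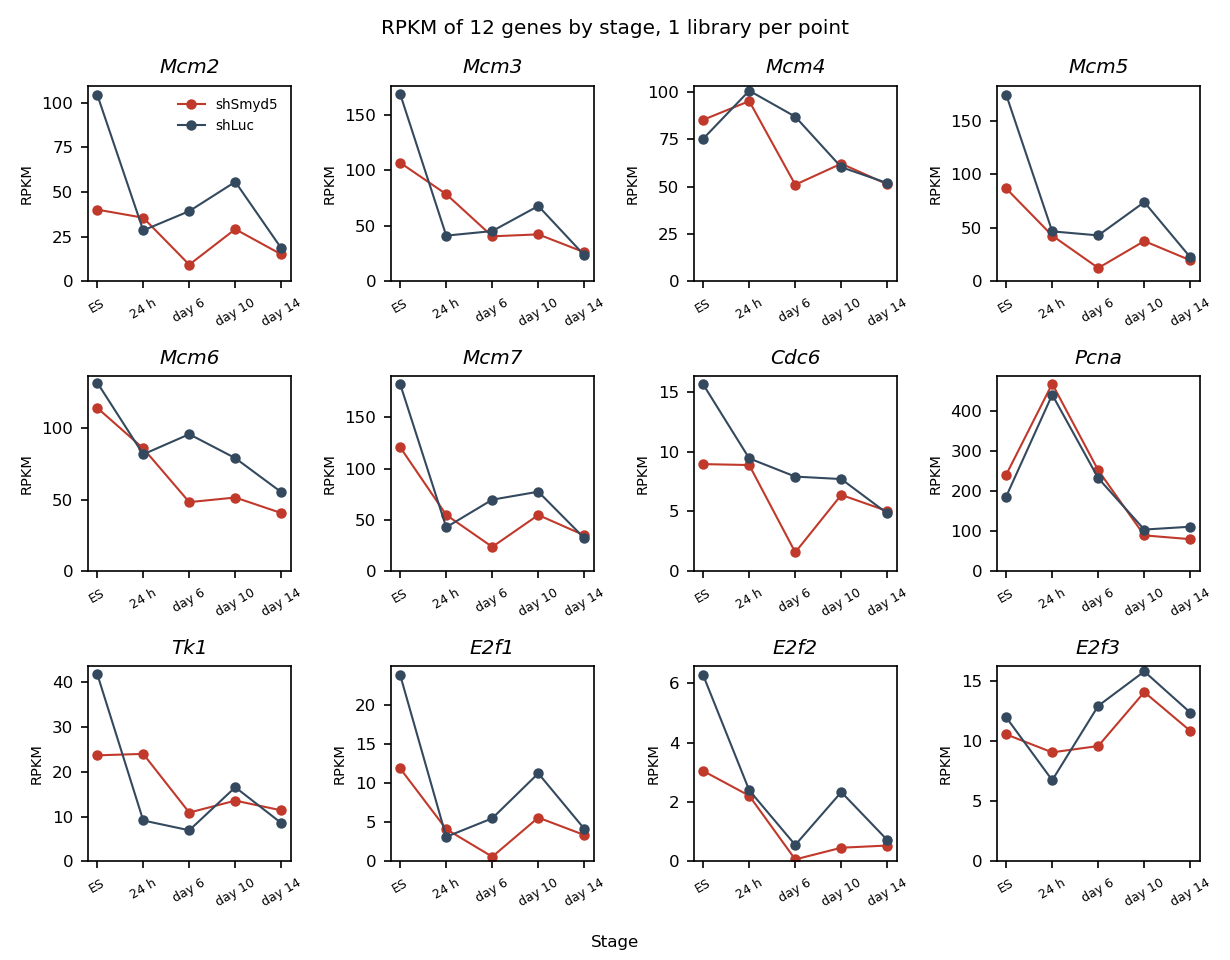
RPKM (y axis, from 0) of 12 genes at the 5 stages (x axis), with 1 library per point, shSmyd5 in red and shLuc in dark blue. Mcm2, Mcm5, Mcm7, Cdc6 and E2f1 have their lowest shSmyd5 point at day 6, while Pcna runs alike in both lines with its highest points at 24 h.

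The knockdown was next compared stage by stage, as the fold of RPKM plus 0.1 in shSmyd5 over shLuc, for genes with at least 3 RPKM in 1 or both libraries. With 1 library of each line there is no replicate check and no test, and the 95% intervals in parentheses, exact binomial intervals of the reads, cover counting error only. The intervals are those of the ratio of reads over library totals, without the added 0.1. At low levels they are therefore not centred on the fold beside them. At day 6, 25 of 42 genes were at least 1.5-fold lower in shSmyd5 EBs, 1 was at least 1.5-fold higher and 16 lay between, while 38.1% of all genes were lower and 15.2% higher at that stage. In all, 37 of the 42 had a log2 fold below 0, for which the share of all genes was not counted. The median log2 fold of the 42 was -0.79, and that of all genes with 3 RPKM in 1 or both libraries was -0.35. Relative to the median of the genes with 3 RPKM in both libraries it was -0.52, and with the dependence on GC content and length taken out it was -0.58. Taking out that dependence also took out the mean fold of the genes fitted, here and in all freed values below. Freed values therefore differ from the others by a change of centre as well as by GC content and length. The shares of all genes were counted on unadjusted folds. None was counted on folds freed of GC content and length, so the freed counts below stand without one.

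**Figure D4:**
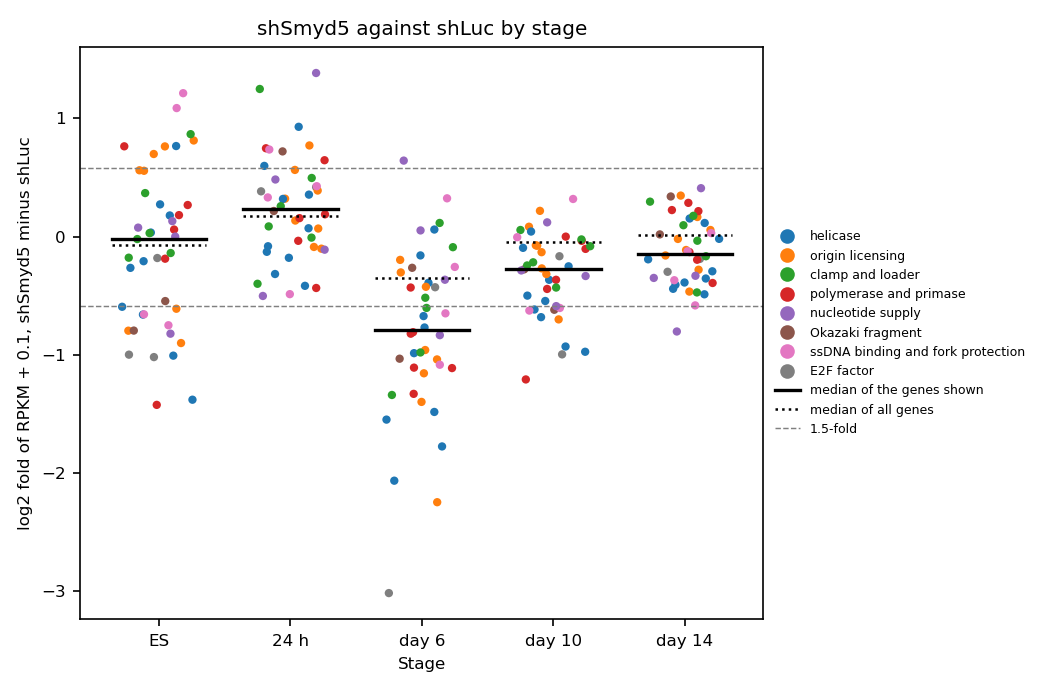
Log2 fold of RPKM plus 0.1, shSmyd5 minus shLuc (y axis), of the genes with at least 3 RPKM in 1 or both libraries at each stage (x axis), 1 point per gene coloured by role, with their median (solid), the median of all genes (dotted) and the 1.5-fold limits (dashed). At day 6, 25 of 42 points lie below the lower limit and at 24 h 0 do.

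At day 6 the lowest folds belonged to a factor, a loader and the helicase. E2f1 had 0.593 RPKM in shSmyd5, against 5.5 RPKM in shLuc EBs of day 6, a log2 fold of -3.01 (95% -3.54 to -2.90). Cdc6 had 1.59 RPKM in shSmyd5, against 7.91 RPKM in shLuc, a log2 fold of -2.25 (95% -2.46 to -2.17). Mcm2 had 9.34 RPKM in shSmyd5, against 39.3 RPKM in shLuc, a log2 fold of -2.06 (95% -2.15 to -2.01). These 3 were over 4-fold lower in the shSmyd5 library. Mcm5 and Mcm7 had log2 folds of -1.77 (95% -1.84 to -1.72) and -1.55 (95% -1.61 to -1.50), and Mcm6, Mcm4 and Mcm3 of -0.99, -0.77 and -0.16, so that the subunits of one ring ran from about level to over 4-fold lower. By role, 7 of 10 helicase genes, 5 of 8 licensing genes, 3 of 6 genes of the clamp and its loader and 5 of 6 polymerase and primase genes were at least 1.5-fold lower. Of the nucleotide supply genes 1 of 4 was at least 1.5-fold lower (Rrm1), and Tk1 was at least 1.5-fold higher, at 0.64 (95% 0.50 to 0.80). Pcna, at 0.12 (95% 0.088 to 0.14), Rpa3, at 0.32 (95% 0.26 to 0.39), Gins2, at 0.061 (95% -0.023 to 0.14), and Tyms, at 0.053 (95% -0.038 to 0.15), completed the 5 highest, and the intervals of Gins2 and Tyms include 0. Freed of the GC and length trend, E2f1 had -2.62, Cdc6 -1.82, Mcm2 -1.58, Mcm5 -1.35 and Mcm7 -1.25, with 21 genes lower and 1 higher by 1.5-fold or more. E2f2 was under 3 RPKM in both libraries of day 6, with 20 reads in shSmyd5 and 169 in shLuc EBs. Marker genes of some cell types also differed at that stage. The 6 ES cell markers (Pou5f1, Nanog, Sox2, Esrrb, Zfp42 and Tdgf1) summed to 312 RPKM in shSmyd5 and 667 RPKM in shLuc EBs. The 6 endoderm markers (Sox17, Gata6, Gata4, Afp, Ttr and Apoa1) summed to 499 RPKM and 89.6 RPKM, with none of these 12 at 0. The 4 neural markers found (Pax6, Tubb3, Nes and Fabp7) summed to 7.25 RPKM in shSmyd5 and 30.6 RPKM in shLuc EBs, and 4 endothelial ones (Cdh5, Pecam1, Kdr and Tek) to 3.43 RPKM and 13.6 RPKM, none at 0. Markers of heart muscle were about level, at 4.96 RPKM in shSmyd5 and 5.08 RPKM in shLuc EBs. Fibroblast markers summed to 5.84 RPKM and 6.78 RPKM and blood markers to 1.36 RPKM and 0.507 RPKM. The part of these markers in the folds above was not tested.

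Whether the day 6 fold differs from that of the other 4 stages was tested with an added shRNA by day 6 term, chosen after the folds had been seen. By edgeR 0 of the 43 genes passed (0% of all 12277), 3 of them (E2f1, Cdc6 and Rfc2) had an unadjusted p under 0.05, as had 1078 of all genes, and DESeq2 and limma also called 0 of the 43. The log2 differences were -2.35 ± 0.66 for E2f1 (edgeR adjusted p = 0.354), -1.66 ± 0.49 for Cdc6 (adjusted p = 0.387) and -1.04 ± 0.45 for Rfc2 (adjusted p = 0.566). With 1 library of each line at day 6 and 3 residual degrees of freedom, the standard errors over the 43 genes ran between 0.42 and 0.92.

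In ES cells the folds went both ways. Of 43 genes, in shSmyd5 ES cells 14 were lower by 1.5-fold or more, 8 higher and 21 between, beside 25.4% of all genes lower and 17.4% higher, and the median was -0.02. Pold1 had 12.5 RPKM in shSmyd5, against 33.6 RPKM in shLuc ES cells, a log2 fold of -1.42 (95% -1.56 to -1.30). E2f2 was at -1.02 (95% -1.29 to -0.78), Mcm5 at -1.01 (95% -1.06 to -0.95) and E2f1 at -0.998 (95% -1.18 to -0.82). The transcripts of the 5 lowest genes, Mcm2 among them, are 52.1% (Mcm5) to 60.7% GC (Pold1). Tipin had 129 RPKM in shSmyd5, against 55.8 RPKM in shLuc, a log2 fold of 1.21 (95% 1.07 to 1.37), and Rpa3 had 67.5 RPKM in shSmyd5, against 31.7 RPKM in shLuc, a log2 fold of 1.09 (95% 0.81 to 1.38), with 113 reads in the shLuc library. Rfc4, Orc2 and Gins1 followed at 0.87, 0.81 and 0.77. The transcripts of these 5 highest genes are 40.4% (Rpa3) to 46.9% GC (Gins1). Across the 43 genes, which share both libraries and are not replicates, the rank correlation of the ES cell fold with GC content was -0.86, and across 8905 genes with a known sequence it was -0.68. Freed of the trend on GC content and length, 4 of the 43 were at least 1.5-fold lower and 0 higher, Pold1 was at -0.37, Mcm2 at -0.73, Mcm5 at -0.67 and Tipin at 0.32, and Rpa3 was at -0.26, in the other direction.

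**Figure D5:**
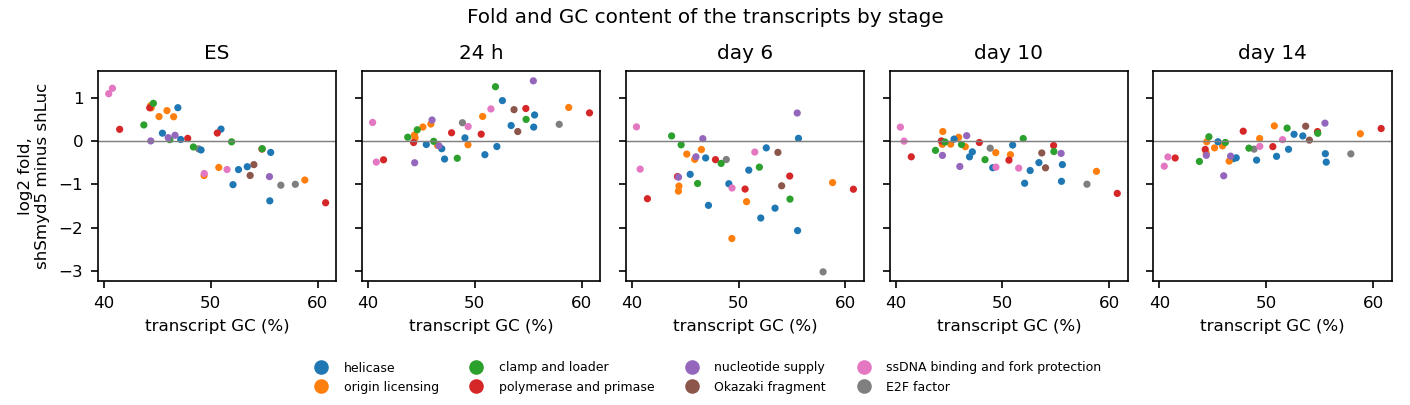
Log2 fold of RPKM plus 0.1, shSmyd5 minus shLuc (y axis), against the GC content of the kept transcript in percent (x axis), for the genes with at least 3 RPKM in 1 or both libraries, 1 panel per stage, coloured by role. The rank correlation is -0.86 in ES cells and -0.65 in day 10 EBs, where the points run down to the right, 0.58 at 24 h and 0.49 in day 14 EBs, where they run up, and -0.25 for day 6.

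At 24 h, 0 of 42 genes were at least 1.5-fold lower in shSmyd5 EBs and 9 were at least 1.5-fold higher, beside 12.2% of all genes lower and 27.8% higher, with a median log2 fold of 0.24. Tk1 had 24.0 RPKM in shSmyd5, against 9.13 RPKM in shLuc EBs of 24 h, a log2 fold of 1.38 (95% 1.195 to 1.598). Rfc5 was at 1.25 (95% 1.14 to 1.37), Mcm3 at 0.93 (95% 0.86 to 0.998), Cdt1 at 0.77 (95% 0.69 to 0.85) and Pola2 at 0.75 (95% 0.62 to 0.89). The lowest were Rrm1, Tipin, Pola1, Gins3 and Rfc3, between -0.50 and -0.40. Over the 42 genes fold and GC content had a rank correlation of 0.58, the other sign than in ES cells. Freed of the trend, 3 genes were at least 1.5-fold higher and 1 lower, and Cdt1 (-0.094), Gins2 (-0.14) and Pold1 (-0.24) were below 0.

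At day 10, 11 of 42 genes were at least 1.5-fold lower in shSmyd5 EBs and 0 higher, beside 16.5% of all genes lower and 10% higher, with a median of -0.27. Pold1 had 9.48 RPKM in shSmyd5, against 22.0 RPKM in shLuc EBs of day 10, a log2 fold of -1.21 (95% -1.36 to -1.08). E2f1 was at -0.995 (95% -1.23 to -0.79), Mcm5 at -0.97 (95% -1.05 to -0.90), Mcm2 at -0.93 (95% -1.01 to -0.85) and Cdt1 at -0.70 (95% -0.79 to -0.61). The 5 highest, Rpa3, Dbf4, Tyms, Gmnn and Rfc5, lay between 0.057 and 0.32. Freed of the GC and length trend, 7 of the 42 stayed lower by 1.5-fold or more, a count with no share of all genes beside it. E2f2, under 3 RPKM in both libraries, had 34 reads in shSmyd5 and 337 in shLuc EBs.

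At day 14 few of these genes differed by 1.5-fold between the lines. Of 42, 1 was at least 1.5-fold lower in shSmyd5 EBs and 0 higher, beside 11.1% of all genes lower and 11.1% higher, with a median of -0.14. Rrm2 had 26.02 RPKM in shSmyd5, against 45.4 RPKM in shLuc EBs of day 14, a log2 fold of -0.80 (95% -0.88 to -0.73). Rpa3, Gins2, Pcna and Orc6 followed between -0.58 and -0.46. The 5 highest, Tk1, Mcm10, Fen1, Rfc5 and Pold1, lay between 0.29 and 0.41.

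A difference common to all 5 stages was tested with stage as a block, 5 shSmyd5 against 5 shLuc libraries. By edgeR 0 of the 43 genes passed an adjusted p of 0.05 (0% of all 12277), 4 of them had an unadjusted p under 0.05, as had 1441 of all genes, and limma called 0. DESeq2 called E2f2 and Mcm5 lower, among 157 lower and 176 higher genes. The lowest log2 folds were -1.27 ± 0.42 for E2f2 (edgeR adjusted p = 0.283), -0.92 ± 0.39 for E2f1 (adjusted p = 0.408), -0.80 ± 0.27 for Mcm2 (adjusted p = 0.293), -0.74 ± 0.22 for Mcm5 (adjusted p = 0.248) and -0.60 ± 0.29 for Cdc6 (adjusted p = 0.454). Over the stages E2f2 and Mcm5 were lower in the shSmyd5 library at 5 of 5, and E2f1 and Mcm2 at 4 of 5, the exception being 24 h. These genes were named for their low shared folds, so the counts of stages add no support. The share of all genes lower at 5 of 5 was not counted. E2f2 reached 3 RPKM in ES cells only, and its interval at 24 h, -0.35 to 0.13, includes 0. The highest were 0.39 ± 0.25 for Rpa3, 0.35 ± 0.31 for Tk1, 0.29 ± 0.20 for Rfc4, 0.27 ± 0.22 for Rfc5 and 0.20 ± 0.20 for Gmnn, with edgeR adjusted p-values between 0.571 and 0.727. The median of the 43 was -0.081, beside 0.0023 for all genes.

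Genes of the same processes outside the 43, from lists of known members, were counted in the same tests. The shares of all genes in the test of late against early, 25.8% lower and 30.1% higher, stand beside each of these counts. Of 34 further replication genes, 24 fell and 1 rose between early and late libraries, with a median log2 fold of -0.85. The gene with the lowest p was listed as 5730590G19Rik, followed by the helicase-nuclease Dna2, at 5.69 ± 1.64 RPKM late and 12.9 ± 1.71 RPKM early (SD, n = 4 each), the histone chaperone Asf1b and the polymerase epsilon subunit Pole2. Of 18 nucleotide supply genes, 15 fell and 1 rose, led by the thymidylate kinase Dtymk, at 31.8 ± 3.08 RPKM late and 118 ± 23.3 RPKM early. Of 15 E2F partners, pocket proteins and their cyclins, 5 fell and 2 rose, and cyclin E1, which with Cdk2 drives entry to S phase, had 12.1 ± 4.29 RPKM late and 98.2 ± 42.4 RPKM early (gene Ccne1). Of 25 genes of G2 and mitosis, 16 fell and 0 rose, with a median of -0.72. At day 6, 16 of 32 further replication genes, 10 of 18 nucleotide supply genes, 7 of 15 E2F partners and 8 of 25 G2 and mitosis genes were at least 1.5-fold lower in shSmyd5 EBs and 1 of each list higher, read beside the 38.1% and 15.2% of all genes. In ES cells 0 of the 25 G2 and mitosis genes were at least 1.5-fold lower in the shSmyd5 library and 12 were higher, against 14 and 8 of the 43 and 25.4% and 17.4% of all genes. The median log2 fold of the 25 was 0.54 there, and 0.25 when freed of GC content and length.

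Cell type markers moved over the same stages. The 6 ES cell markers summed to 28.2 to 119 RPKM in late and 1155 to 1991 RPKM in early libraries, and all 6 fell by the edgeR test. The 6 endoderm markers summed to 1386 to 3857 RPKM in late and 1.09 to 11.3 RPKM in early libraries. The 7 fibroblast markers (Col1a1, Col1a2, Col3a1, Thy1, Postn, Dcn and Lum) summed to 216 to 3417 RPKM in late and 3.56 to 4.49 RPKM in early libraries, 6 of them rose and 1 fell, and 3 of the 7 were at 0 in shSmyd5 and 4 in shLuc ES cells. In shSmyd5 cells the 4 neural markers summed to 5.11 and 6.25 RPKM in late and 15.1 and 21.3 RPKM in early libraries. In shLuc cells they summed to 54.8 and 92.4 RPKM in late and 16.8 and 60.2 RPKM in early libraries. The 4 endothelial markers summed to 30.9 to 50.5 RPKM in late and 9.98 to 18.7 RPKM in early libraries. The part of these cell types in the fall of the 43 genes was not tested.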

How the data were processed

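RNA-Seq libraries of 10 conditions, 1 each, were analysed. Per the labels, polyA RNA was made into double-stranded cDNA, so strand is unknown; for the deposited files the authors aligned single-end reads against mm9, and the notes name Bowtie2 and CASAVA; versions are not given in the sources used here. The deposited counts are whole reads per RefSeq transcript (29257 listed, 22878 symbols), and the deposited RPKM values are those reads over transcript length and library total. From these, genes with a mean of at least 1 RPKM (12277) were tested with edgeR 4.0.16 (quasi-likelihood, TMM, R 4.3.3), with limma 3.58.1 and DESeq2 1.42.0 as alternatives; the common biological coefficient of variation was 0.335. Folds per stage used RPKM plus 0.1 and no test. Reads in genes (3895537 to 43377815) set the counting error, shown as exact binomial 95% intervals. Coordinates came from GENCODE M1 on NCBIM37 (mm9), promoters from RefSeq on GRCm38.p6. Groups came from sample titles. The members and lists were chosen with earlier results of these data known. Named with values in every library were Mcm2 to Mcm7, E2f1 to E2f3, Cdt1, Gmnn, Pcna and the 5 highest and 5 lowest folds in both main tests and each stage; the rest are given by counts. Other assays of the study were not used here.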

Additional observations from a re-analysis of the deposited data

Results flagged for a closer look

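For 12 of the 43 genes the fold of shSmyd5 over shLuc was at least 1.5-fold higher at 1 stage and at least 1.5-fold lower at another. The share of all genes with such opposite folds was not counted, so this cannot be read as particular to the 43. Each stage holds 1 library of a line, so these differences between stages were not tested. The gap between the highest and the lowest log2 fold was 2.20 for Tk1 (24 h and ES cells), 2.07 for Pold1 (24 h and ES cells), 1.52 for Fen1 (24 h and ES cells) and 1.39 for Rpa2 (24 h and ES cells). It was 1.61 for Mcm3 (24 h and day 10). It was 1.85 for Rfc5, 1.73 for Cdt1 and 1.56 for Pola2 (24 h and day 6), and 1.97 for Orc2, 1.86 for Tipin, 1.80 for Dbf4 and 1.58 for Prim1 (ES cells and day 6). With the dependence on GC content and length taken out, 0 of the 12 kept a 1.5-fold difference in both directions, and the gaps were between 0.13 for Pold1 and 1.34 for Rfc5.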

How the results depend on the processing

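The count of 36 genes lower in late libraries stood beside 3172 of all 12277 genes. It was 18 at an adjusted p of 0.001 with 2-fold, beside 1095 of all 12277 genes. Against day 6 alone, a contrast of other stages, it was 10, beside 1583 of 12277. Leaving out a stage or a library gave 25 (without day 14) to 39 (without shLuc day 6). Over all genes 2164 of 11984 and 3410 of 12299 were lower in these 2 settings. Of the 36 genes, 20 were called in all 23 alternatives that kept the contrast and the threshold of 0.05, and E2f2 in the 22 that tested it. Against day 6 alone the log2 fold turned to 0.22 for Cdc6, 0.054 for Cdt1, 0.92 for E2f1, 1.56 for E2f2, 0.12 for Mcm5, 0.43 for Pold1, 0.085 for Prim2, 0.72 for Rfc2, 0.077 for Tk1 and -0.14 for E2f3, none of them called. E2f3 was also below 0 for day 14 minus ES cells (-0.077) and with the GC and length offset (-0.69, adjusted p = 0.00562), and ran between -0.015 without day 10 and 0.28 without day 14 when 1 stage or library was left out; Pold1 then ran between -1.56 without 24 h and 0.81 without ES cells, and was 0.46 without day 14. The median of all genes, 0.06, was 0.22 with library size alone, 0.44 with limma on log2 RPKM and -0.38 over the 11695 genes of the GC offset. The shared knockdown effect had 2 genes lower by DESeq2 and 0 in each of the other 24 alternatives, and Gmnn was at -0.00045 with the GC offset. At 2-fold the counts per stage, lower and higher, were 4 and 2 in ES cells, 2 higher at 24 h, 15 and 0 at day 6, 1 lower at day 10 and 0 at day 14. Freed of GC content and length they were 4 and 0 in ES cells, 1 and 3 at 24 h, 7 lower at day 10 and 2 lower at day 14, with medians of -0.13 in ES cells, 0.017 at 24 h and -0.58 at day 6; Rpa3 in ES cells (-0.26) and Cdt1 (-0.094), Gins2 (-0.14) and Pold1 (-0.24) at 24 h changed sign among the folds of 1.5-fold or more, and over folds of any size 13 of 43 changed sign in ES cells and 12 of 42 in EBs of 24 h, while day 6 had 3 such genes, day 10 had 5 and day 14 had 8. Relative to the median of all genes 2 were lower at 24 h, 18 lower and 2 higher at day 6 and 2 lower at day 14, with medians of 0.10 at 24 h and -0.52 at day 6. With a pseudocount of 1, 0 were higher at day 6. For these other settings of the stage counts the share of all genes was not counted. The causes were not tested. The labels give no replicate numbers, and the knockdown test paired the libraries of a stage through the stage block; without that block 0 of the 43 genes were called.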
